A study of Saccharomyces cerevisiae with 6 samples.

Results

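The genes described here are the 6 budding yeast genes HMRA1, DYN2, YOS1, AML1 (EFM5 in RefSeq), TAD3 and SRC1, each of which occupies 2 rows of a splicing-sensitive microarray table. They were taken by locus, as every gene listed in exactly 2 rows other than RPL7A, RPL7B and RPS22B. They hold 12 of the 253 rows and are 6 of the 239 genes in the table. Each row pairs 1 intron feature with 1 splice junction feature, and both rows of a gene repeat the same exon feature, so the 6 genes have 12 intron, 12 junction and 6 exon features. First and second row mean the order in the table. Which intron or splice form a row stands for is not given in the sources used here.

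Every array set RNA of a strain whose only PRP8 gene carried the S2197F mutation against RNA of a strain whose only PRP8 gene was wild type. In both strains the chromosomal PRP8 was deleted and the remaining copy sat on a HIS-marked CEN plasmid. Cultures in rich medium were started overnight at 30 °C, diluted, and kept at 37 °C up to an OD600 near 0.7, so mutant and wild type shared the heat. There were 3 pairs of independent cultures, each hybridised on 2 arrays with the dyes exchanged, and the 2 arrays of a pair count as 1 replicate (n = 3). The sources used here give neither strain background nor mating type.

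Splicing removes introns in 2 chemical steps, and Prp8 lies at the catalytic centre of the spliceosome that carries them out. Few genes of budding yeast have an intron, and very few have more than 1. Where a gene has several, each is a separate substrate with its own splice sites, so introns of 1 transcript can be compared under the same promoter, culture and RNA. A second row need not be a second intron, since alternative splice sites of 1 intron also give separate junctions. SRC1 is known for such an alternative 5′ splice site, which yields a longer and a shorter protein. The genes have unrelated functions. HMRA1 is the silent copy of the gene for the a1 homeodomain repressor, and in cells of mating type a an identical sequence is expressed from the mating type locus. DYN2 encodes the dynein light chain, YOS1 a membrane protein of transport from the endoplasmic reticulum to the Golgi, AML1 a lysine methyltransferase of translation elongation factor 1A, TAD3 a subunit of the tRNA adenosine deaminase, and SRC1 a protein of the inner nuclear membrane.

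Values are deposited ratios of mutant over wild type, taken as log2, so 1 unit is a 2-fold change and a positive value means more signal in the mutant. The base of the logarithm was not stated, and every fold depends on it. An intron feature also detects excised introns and splicing intermediates. The intron ratios of SNR17A, the U3 RNA gene, were 2.10, 2.14 and 2.01, so the 3 replicates of this table ran the same way. Across all rows the intron ratios correlated at r = 0.64 between replicates 1 and 2, 0.43 between 1 and 3 and 0.41 between 2 and 3. For junctions these were 0.0015, 0.23 and 0.18, and for exons 0.19, 0.014 and 0.39. In a separate deposit of single arrays, arrays of replicate 1 correlated with those of the other replicates more closely where the titles gave the mutant the opposite dye (Spearman's rho from 0.24 to 0.34) than where they gave it the same dye (-0.0046 to 0.21). For replicates 2 and 3 the ranges were 0.20 to 0.28 with opposite and 0.27 to 0.50 with the same dye. The 2 arrays of a pair correlated at a rho of 0.030 in replicate 1, 0.25 in replicate 2 and 0.38 in replicate 3. Those spots carry no gene names, and whether titles were exchanged was not tested. Counts at an adjusted p under 0.05, for these genes and for the whole table, are therefore also given without replicate 1 where it changed them. Other counts rest on all replicates.

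The first comparison asks whether the introns of these genes gave more signal in the mutant. None did beyond the replicate error: 0 of 12 intron features rose and 0 fell by limma, also at an unadjusted p under 0.05 (0 of 12). Over all 251 intron features 59 rose and 0 fell (23.5%), and at an unadjusted p under 0.05 the number was 92 (36.7%). That background moved with the setting: it was 35 of 245 without replicate 1, 2 of 245 without replicate 2, and 7 of 251 with adjustment over the 3 classes together, while the count for these genes was 0 of 12 each time. The 12 mean ratios ran from -0.13 to 0.31 with a median of 0.09, and 9 were positive. The smallest intron ratio that passed anywhere in the table was 0.51. Over all features the median was 0.27. The 12 rows also changed side between cultures. Of 245 introns measured in all 3 replicates 126 were higher in every one (51.4%), against 0 of these 12, and 11 were lower in every one (4.49%), against 1 of these 12. Ribosomal protein genes gave 83 of those 126, from 102 introns. Among the 131 complete introns outside those genes and these 6, 43 were higher in every replicate and 10 lower.

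The single intron that kept its sign was the first of DYN2, at -0.12, -0.05 and -0.18 in replicates 1 to 3 (-0.11 ± 0.15, limma SE, adjusted p = 0.64). The second DYN2 row had -0.29, -0.06 and 0.38 (0.01 ± 0.18, adjusted p = 0.98). DYN2 introns thus lay below 0 in 5 of 6 values, all of them within 0.30 of it, and only the second row in replicate 3 lay above.

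The second row of YOS1 gave -0.28, 0.05 and 1.18 (0.31 ± 0.27, adjusted p = 0.43, 1.24-fold). The mean rests on replicate 3, and without it the value was -0.12. The first row gave 0.06, 0.45 and -0.02 (0.16 ± 0.17, adjusted p = 0.51), highest in replicate 2 and not in replicate 3.

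For SRC1 the first row had -0.40, 0.21 and 0.98 (0.26 ± 0.25, adjusted p = 0.48). Its second row had -0.24, -0.07 and 0.64 (0.11 ± 0.20, adjusted p = 0.73). Both rows were lowest in replicate 1 and highest in replicate 3.

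HMRA1 showed the same order of replicates. Its first row had -0.18, 0.12 and 0.15 (0.03 ± 0.16, adjusted p = 0.92), and its second row -0.43, 0.26 and 0.61 (0.15 ± 0.22, adjusted p = 0.67). The rows lay on the same side of 0 in all 3 replicates.

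In AML1 only the first row kept that order, and in TAD3 neither did. The first row of AML1 had -0.27, 0.11 and 0.63 (0.16 ± 0.20, adjusted p = 0.63), while the second had -0.50, 0.46 and -0.35 (-0.13 ± 0.21, adjusted p = 0.71). The first row of TAD3 had 0.21, 0.35 and -0.57 (-0.0053 ± 0.21, adjusted p = 0.98). Its second row had -0.04, 0.29 and -0.05 (0.07 ± 0.16, adjusted p = 0.79). In replicate 3 the AML1 rows were on opposite sides of 0, and both TAD3 rows were below it.

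**Figure D1:**
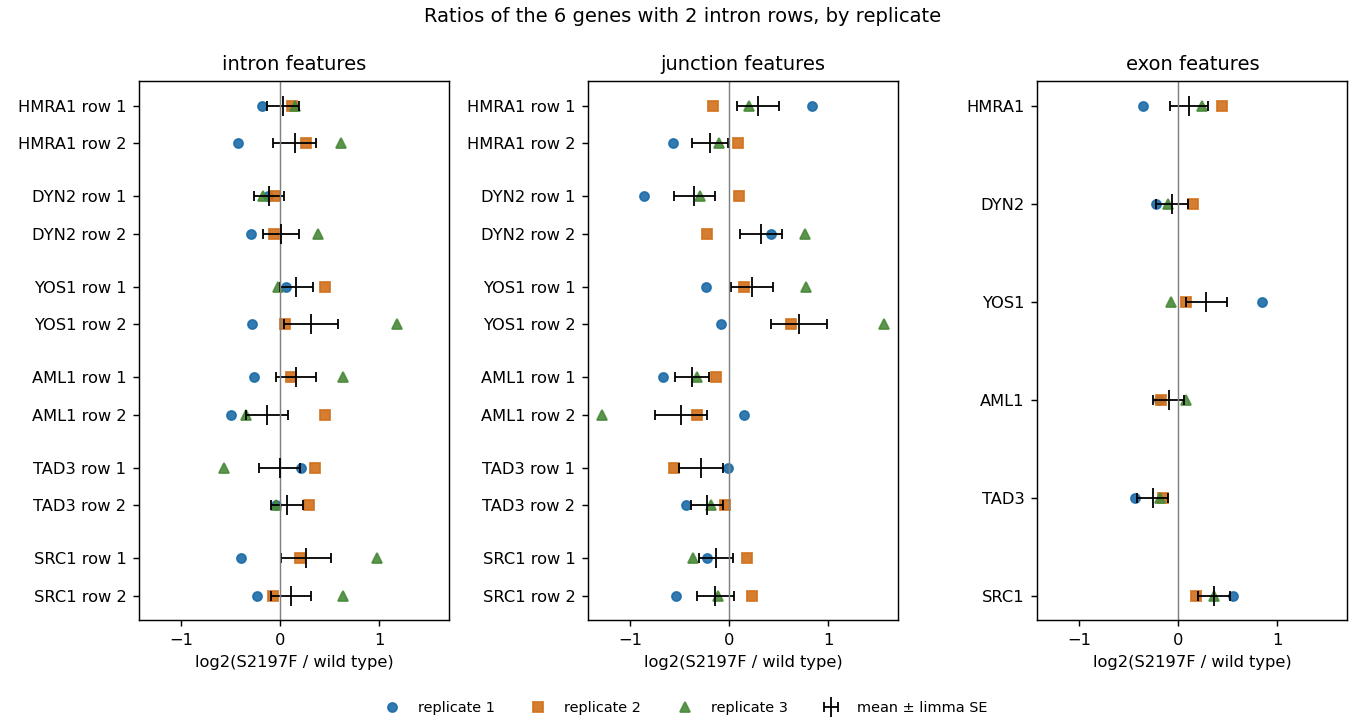
Ratios of mutant over wild type (x axis, log2) for each row of the 6 genes in the intron and junction panels and for each gene in the exon panel. Symbols are the 3 replicates and black bars the mean ± limma SE. All 12 intron means lie between -0.13 and 0.31, while the second YOS1 row reaches 1.18 (intron) and 1.57 (junction) in replicate 3.

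By replicate, the median of the 12 intron ratios was -0.25, 0.16 and 0.26 (0.06 ± 0.27, SD, n = 3). In replicate 1 the intron signal was higher in the mutant for 2 of 12 rows, in replicate 2 for 9 and in replicate 3 for 7. The other rows outside ribosomal protein genes had medians of -0.04, 0.18 and 0.27. Within each replicate the median of the 12 rows minus that of these others was -0.21, -0.02 and -0.00065 (-0.08 ± 0.12, SD, n = 3; exact two-sided sign-flip p = 0.25, the smallest that 3 values allow). The gap was widest in replicate 1 and near 0 in the other 2. Rows of ribosomal protein genes dominate the introns that rose in these same data. Against them the differences were -0.82, -0.27 and -0.17 (-0.42 ± 0.35, SD, n = 3). A gap below a group known to be high is a description only, so no p-value is given. Among ribosomal protein rows 44 of 102 rose, with a median of 0.53. Among the other rows outside those and the 6 genes 15 of 137 rose, with a median of 0.17.

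**Figure D2:**
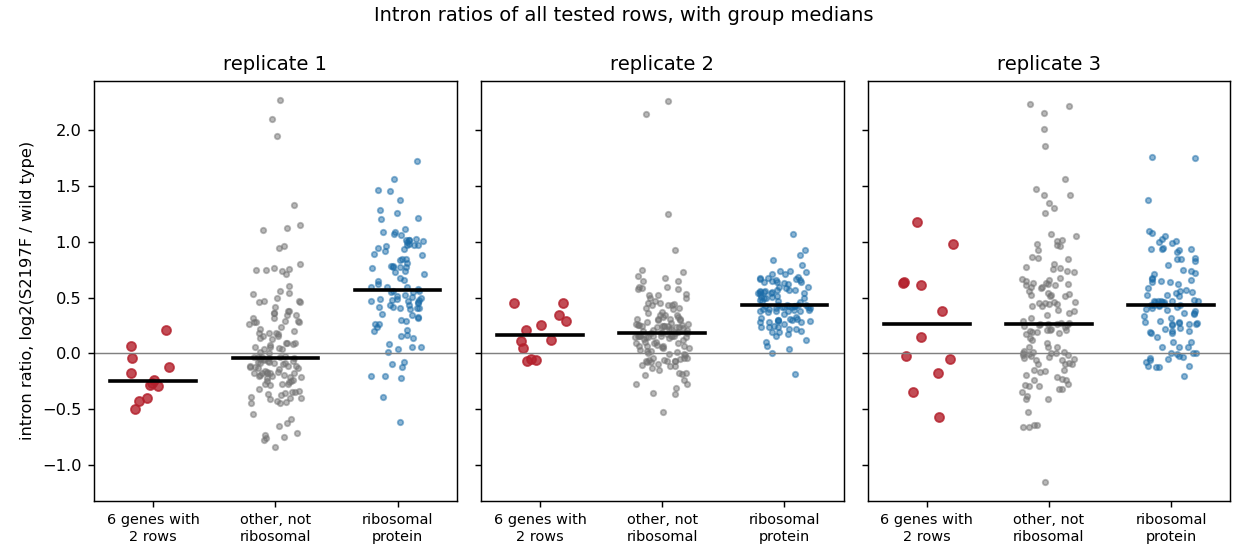
Intron ratios (y axis, log2) of every tested row in each replicate, for the 6 genes with 2 rows, other genes outside the ribosomal protein group, and ribosomal protein genes, which include RPL7A, RPL7B and RPS22B. Black lines are medians. The 6 genes have a median of -0.25 in replicate 1 against -0.04 for other genes, and in replicates 2 and 3 the 2 medians lie within 0.02 of each other.

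RPL7A, RPL7B and RPS22B, the other genes listed in 2 rows, encode ribosomal proteins. Of their 6 intron features 3 rose, both of RPL7B and the first of RPL7A, and their median was 0.56. The median of the 12 rows minus that of these 6 was -0.78, -0.16 and -0.49 within the replicates (-0.48 ± 0.31, SD, n = 3). The 2 sets were divided with earlier results of these data known, so this gap is a description only. In exon ratios the direction was the opposite, at 0.09, 0.32 and 0.30 (0.24 ± 0.13, SD, n = 3), also as a description only.

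The second comparison concerns the spliced products. Of 12 junction features 0 rose and 0 fell by limma, against 1 of 248 in all (0.403%). At an unadjusted p under 0.05 there was 1 of 12, the second row of YOS1, which was higher. In all there were 33 of 248 (13.3%), 4 of them higher and 29 lower. The 12 means ran from -0.49 to 0.70 with a median of -0.17, and the median over all junctions was -0.10. Of 11 junctions measured in every replicate 0 were higher and 2 lower in all 3, where the whole table had 6.85% higher and 29.7% lower.

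The second YOS1 junction had -0.08, 0.62 and 1.57 (0.70 ± 0.28, adjusted p = 0.33, 1.63-fold). The first had -0.23, 0.15 and 0.78 (0.23 ± 0.21, adjusted p = 0.71). Both were lowest in replicate 1 and highest in replicate 3, and the second row exceeded the first in each.

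AML1 junctions lay on the low side. Its first row had -0.67, -0.14 and -0.33 (-0.38 ± 0.17, adjusted p = 0.38) and was below 0 in all 3 replicates. The second had 0.15, -0.33 and -1.28 (-0.49 ± 0.26, adjusted p = 0.46), with its most negative value in replicate 3. Without replicate 1 the second rows of both genes passed: YOS1 at 1.09 (adjusted p = 0.000617) and AML1 at -0.81 (adjusted p = 0.0245). In that setting 2 of 11 junctions of these genes passed, beside 11 of 226 in all, each on 2 replicates. Without replicate 3 the same junctions stood at 0.27 for YOS1 (adjusted p = 0.71) and -0.088 for AML1 (adjusted p = 0.96), and without replicate 2 at 0.74 (adjusted p = 0.59) and -0.57 (adjusted p = 0.62).

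DYN2 and HMRA1 had junctions on opposite sides of 0 in every replicate. The first DYN2 junction had -0.86, 0.10 and -0.29 (-0.35 ± 0.21, adjusted p = 0.51). The second had 0.42, -0.23 and 0.77 (0.32 ± 0.21, adjusted p = 0.55). Each DYN2 row was thus above 0 where the other was below it.

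In HMRA1 the first junction had 0.84, -0.16 and 0.20 (0.29 ± 0.21, adjusted p = 0.61), and the second -0.57, 0.09 and -0.10 (-0.19 ± 0.18, adjusted p = 0.72). The first was highest, and the second lowest, in replicate 1.

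TAD3 and SRC1 junctions were lower in the mutant in most cultures, as were most junctions of the whole table. Of those, 72 of 241, 100 of 248 and 87 of 226 lay above 0 in replicates 1 to 3. Centred on the exon median, the SRC1 junction means were 0.0012 and -0.0034, and those of TAD3 -0.18 and -0.087. The first TAD3 junction had -0.01 and -0.56 with no value in replicate 3 (-0.29 ± 0.23, n = 2, adjusted p = 0.65). The second had -0.44, -0.04 and -0.19 (-0.22 ± 0.16, adjusted p = 0.61), which made it, with the first of AML1, 1 of the 2 junctions below 0 throughout. SRC1 had -0.22, 0.18 and -0.36 in its first row (-0.13 ± 0.17, adjusted p = 0.78) and -0.54, 0.23 and -0.11 in its second (-0.14 ± 0.19, adjusted p = 0.79). The SRC1 rows lay on the same side of 0 in each replicate.

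Exon features show whether the transcript as a whole was more or less abundant. Of 6 exon features 0 passed, and 0 of 6 had an unadjusted p under 0.05. Over all genes 0 of 234 passed (0%), with 30 at an unadjusted p under 0.05 (12.8%). SRC1 was the only 1 of the 6 above 0 in every replicate, at 0.55, 0.17 and 0.36 (0.36 ± 0.16, adjusted p = 0.39, 1.29-fold), where 6.41% of exon features were. TAD3 was the only 1 below 0 throughout, at -0.44, -0.16 and -0.19 (-0.26 ± 0.16, adjusted p = 0.46), where 33.3% were. By the gene models of RefSeq (assembly R64) TAD3 overlaps its neighbour NKP2, and whether a probe lies there is not known.

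YOS1 had an exon mean set by 1 culture, with 0.85, 0.08 and -0.08 (0.28 ± 0.21, adjusted p = 0.56). Its exon was thus highest in replicate 1, where both of its junctions were below 0, and lowest in replicate 3, where both were highest. Without replicate 1 the exon mean was -0.0011. HMRA1 had -0.36, 0.44 and 0.24 (0.11 ± 0.20, adjusted p = 0.83), DYN2 -0.23, 0.15 and -0.11 (-0.06 ± 0.16, adjusted p = 0.89), and AML1 -0.20, -0.17 and 0.07 (-0.10 ± 0.16, adjusted p = 0.83). None of these last 3 kept a sign.

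Intron signal was next set against the junction of the same row and replicate, where any offset of an array cancels. Of 12 rows 0 passed in either direction, also at an unadjusted p under 0.05 (0 of 12), against 53 of 247 in all (21.5%), or 86 unadjusted (34.8%). The number in all was 33 of 221 without replicate 1, 37 of 214 without replicate 2 and 2 of 240 without replicate 3. Of 11 complete rows 3 were higher in all 3 replicates, where the whole table had 57.5%, and 1 was lower in all 3, where it had 1.87%. The median of the 12 rows was 0.27 and that of all rows 0.39. Ribosomal protein rows had a median of 0.64, with 34 of 101 higher by limma. The other rows outside those and these genes had a median of 0.22, below that of the 12. Of these others 18 of 134 were higher by limma and 1 lower. Of their 110 complete rows, 51 were higher in all 3 replicates and 3 lower. Within replicates the median of the 12 was 0.18, 0.21 and 0.14 (0.18 ± 0.03, SD, n = 3), which is above 0 each time. All rows had 0.36, 0.40 and 0.53, and those others 0.24, 0.22 and 0.39, above the 12 each time. The difference from those others was not tested.

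The first row of TAD3 had 0.22 and 0.91 (0.56 ± 0.35, n = 2, adjusted p = 0.25), and that of AML1 had 0.41, 0.25 and 0.96 (0.54 ± 0.28, adjusted p = 0.16, 1.45-fold). The second rows of TAD3 (0.40, 0.33 and 0.14) and HMRA1 (0.14, 0.17 and 0.71) were also positive throughout, with means of 0.29 ± 0.28 and 0.34 ± 0.28 and an adjusted p of 0.47 and 0.40. The second YOS1 row was negative throughout, at -0.21, -0.57 and -0.39 (-0.39 ± 0.28, adjusted p = 0.33), so its junction ratio exceeded its intron ratio in each replicate.

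In the other rows the sign changed between cultures. The first row of YOS1 had 0.29, 0.30 and -0.80 (-0.07 ± 0.29, adjusted p = 0.87). SRC1 had -0.18, 0.02 and 1.35 in its first row (0.40 ± 0.29, adjusted p = 0.34) and 0.30, -0.30 and 0.75 in its second (0.25 ± 0.28, adjusted p = 0.55). The second AML1 row had -0.65, 0.78 and 0.94 (0.36 ± 0.29, adjusted p = 0.40).

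DYN2 differed in sign between its rows. Its first row had 0.74, -0.14 and 0.12 (0.24 ± 0.28, adjusted p = 0.56) and its second -0.72, 0.17 and -0.39 (-0.31 ± 0.28, adjusted p = 0.44). The first row of HMRA1 had -1.02, 0.29 and -0.05 (-0.26 ± 0.29, adjusted p = 0.53), set by replicate 1. The empirical Bayes step of limma gave the common variance a weight of 57.2 degrees of freedom in this fit, so the SEs are nearly alike and say little of the spread of 1 row.

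Against the exon of the same gene the median of the 12 introns was -1.79e-05, and that of all rows 0.38. Both rows of a gene subtract the same exon value, so the 12 differences rest on 6 exon features and are not independent within a gene. Of 12 rows 0 passed, also at an unadjusted p under 0.05 (0 of 12), against 72 of 246 in all (29.3%), or 102 unadjusted (41.5%). Without replicate 1 the number in all was 0 of 240, without replicate 2 it was 45 of 240 and without replicate 3 it was 57 of 246, so the background that these 12 are read against was absent in the first of these settings. Above 0 in every replicate were 54.2% of all rows and below 0 in every replicate 5.83%, against 1 and 0 of these 12. Ribosomal protein rows had a median of 0.71, with 58 of 101 higher by limma and 85 above 0 in every replicate. The other rows outside those and the 6 genes had a median of 0.26, with 14 of 133 higher by limma. Of the 127 complete rows among these others, 44 were above 0 in every replicate and 14 below. The second TAD3 row was that 1 row, at 0.40, 0.45 and 0.14 (0.33 ± 0.23, adjusted p = 0.29). The SRC1 rows had -0.95, 0.03 and 0.62 (-0.10 ± 0.27, adjusted p = 0.80) and -0.79, -0.24 and 0.28 (-0.25 ± 0.25, adjusted p = 0.43). YOS1 had -0.79, 0.37 and 0.06 in its first row (-0.12 ± 0.25, adjusted p = 0.75) and ran from -1.13 in replicate 1 to 1.26 in replicate 3 in its second (0.03 ± 0.32, adjusted p = 0.93). The remaining 7 rows had means between -0.08 and 0.26. In this fit the common variance had a weight of 15.6 degrees of freedom, so these SEs also understate how far rows differ in spread. The SD over replicates was 1.20 in the second YOS1 row and 0.16 in the second TAD3 row.

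**Figure D3:**
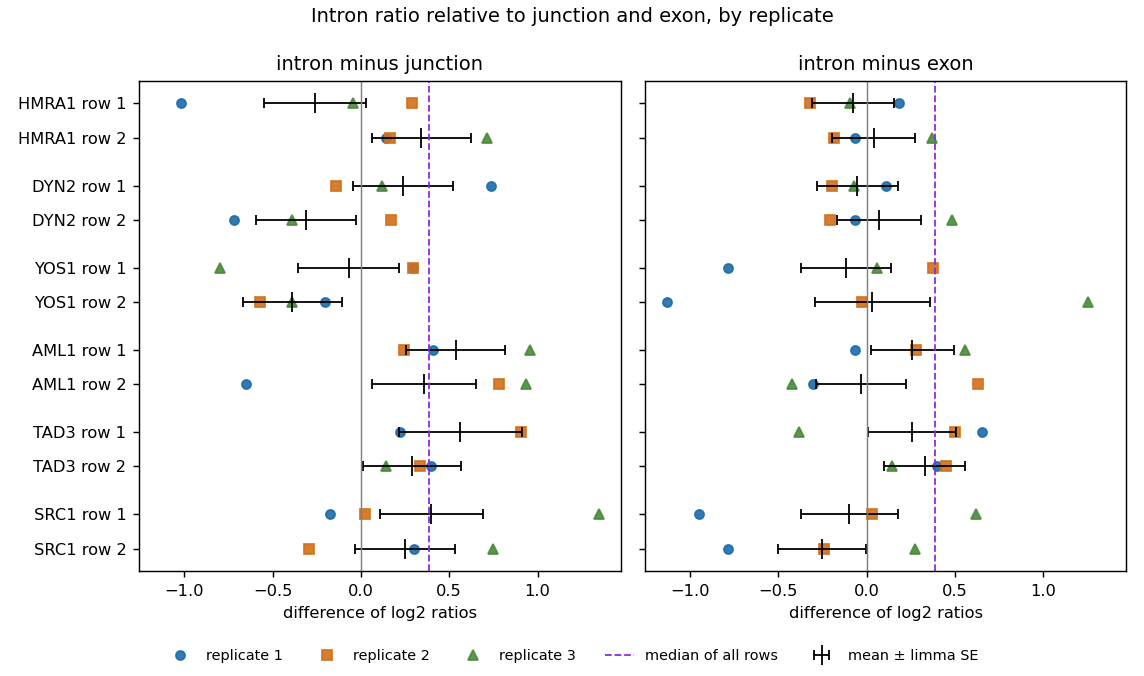
Intron ratio minus junction ratio (left) and minus exon ratio (right) for each row, as differences of log2 ratios on the x axis. Symbols are replicates, black bars the mean ± limma SE, and the dashed line the median of all rows, at 0.39 and 0.38. Intron minus junction is negative in all 3 replicates for the second YOS1 row only.

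The last comparison asks whether the rows of a gene differ, as the second row minus the first within each replicate. Both rows share cultures, RNA and arrays, and their exon feature is the same, so it gives no difference. Of 12 differences (6 introns and 6 junctions) 0 passed by limma, also at an unadjusted p under 0.05 (0 of 12). Among the 18 differences of all 9 genes with 2 rows 0 passed (0%), and 1 had an unadjusted p under 0.05 (5.56%), the junction of RPS22B. With 3 replicates the exact sign-flip p for 1 gene is at least 0.25.

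Intron differences between rows were small on average and varied in sign. SRC1 had 0.16, -0.27 and -0.35 (-0.15 ± 0.19, adjusted p = 0.84, 95% interval -0.66 to 0.36), the narrowest interval of the 6. YOS1 had -0.35, -0.40 and 1.20 (0.15 ± 0.39, adjusted p = 0.89, interval -0.91 to 1.21), the widest. AML1 had -0.23, 0.35 and -0.98 (-0.29 ± 0.31, adjusted p = 0.79). These intervals span more than a 2-fold range, so similar behaviour of the rows is not shown either.

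In HMRA1, DYN2 and TAD3 the second intron was the lower in replicate 1 and the higher in replicate 3. The differences were -0.25, 0.13 and 0.46 for HMRA1 (0.12 ± 0.21, adjusted p = 0.84) and -0.17, -0.01 and 0.56 for DYN2 (0.12 ± 0.22, adjusted p = 0.84). TAD3 had -0.25, -0.06 and 0.52 (0.07 ± 0.22, adjusted p = 0.89). No intron difference of the 6 genes kept its sign over the replicates (0 of 6).

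Among the 17 differences with 3 values 23.5% kept 1 sign, and among the 11 of these genes 1 did, the YOS1 junction. YOS1 was the 1 gene whose second junction was the higher in every replicate, by 0.15, 0.47 and 0.79 (0.47 ± 0.20, adjusted p = 0.45, interval -0.07 to 1.01). DYN2 had 1.28, -0.32 and 1.06 (0.67 ± 0.38, adjusted p = 0.65, interval -0.35 to 1.69), and its mean ran from 0.37 to 1.17 as replicates were left out. HMRA1 had -1.41, 0.26 and -0.30 (-0.48 ± 0.37, adjusted p = 0.65). In both DYN2 and HMRA1 replicate 2 went against the other 2 replicates.

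AML1 ranged from 0.82 in replicate 1 through -0.19 to -0.96 in replicate 3 (-0.11 ± 0.39, adjusted p = 0.89). TAD3 had -0.43 and 0.52 (0.05 ± 0.34, n = 2, adjusted p = 0.95), and SRC1 -0.31, 0.05 and 0.26 (-0.0046 ± 0.19, adjusted p = 0.98). For these 3 genes the mean is small because replicates of opposite sign cancel.

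**Figure D4:**
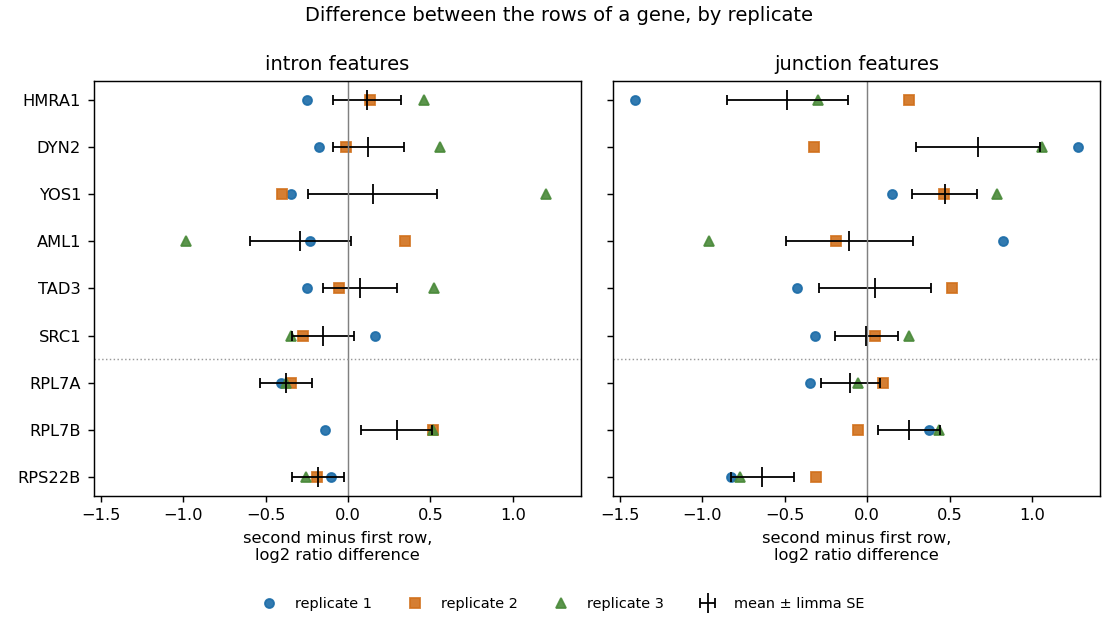
Second minus first row within each replicate (x axis, difference of log2 ratios) for intron and junction features of the 6 genes, with RPL7A, RPL7B and RPS22B under the dotted line. Symbols are replicates and black bars the mean ± limma SE. Only YOS1 among the 6 genes has all 3 junction differences on the same side of 0, and none has all 3 intron differences there.

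The rows of a gene fell on the same side of 0 in 12 of 18 gene and replicate combinations for introns and in 10 of 17 for junctions. Unrelated rows also agree where most rows of a replicate lie on 1 side. Above 0 were 2, 9 and 7 of 12 introns in replicates 1 to 3, and 3 of 12, 6 of 12 and 4 of 11 junctions. Whether the rows of a gene agreed more than unrelated rows was not tested. By gene, the introns did so in 3 of 3 replicates for HMRA1, 2 of 3 for DYN2, AML1, TAD3 and SRC1, and 1 of 3 for YOS1. The junctions did so in 3 of 3 for YOS1 and SRC1, 2 of 2 for TAD3, 2 of 3 for AML1, and 0 of 3 for DYN2 and HMRA1. In RPL7A, RPL7B and RPS22B the counts were 8 of 9 and 7 of 9, where 4, 5 and 6 of 6 introns lay above 0 in replicates 1 to 3. The SD of the intron difference over replicates ran from 0.28 to 0.91 in the 6 genes, and was 0.03 for RPL7A, 0.07 for RPS22B and 0.38 for RPL7B. For junctions it was 0.29 to 0.89 and 0.22 to 0.28. The difference in spread between these sets was not tested.

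The spread between cultures was described by the SD over replicates, and the difference from other genes was not tested. Among features measured in every replicate, the median SD of the 12 introns was 0.46, against 0.27 over all 245 and 0.28 over other genes outside the ribosomal protein group. For 11 junctions it was 0.48, against 0.29 over all 219. For the 6 exons it was 0.19, against 0.24 over all 234. Single features departed from these medians: the first DYN2 intron had an SD of 0.065, while the exons of YOS1 and HMRA1 had 0.50 and 0.42. Of the introns 8 of 12 lay above the median SD of the table, of the junctions 8 of 11 and of the exons 2 of 6. Probe brightness, which bears on such spread, is not in the values used here, and its part was not tested.

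**Figure D5:**
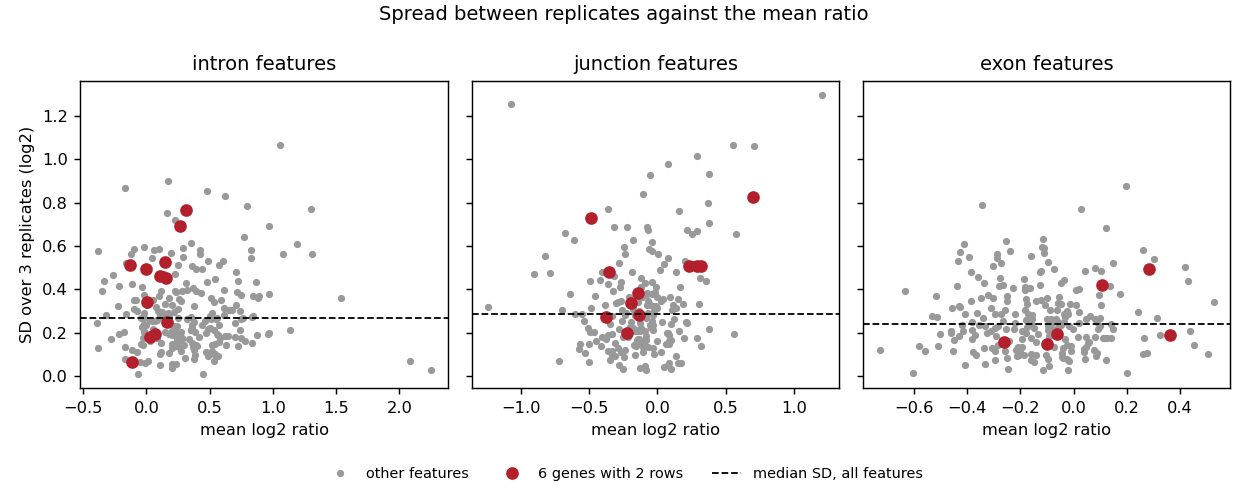
Standard deviation over the 3 replicates (y axis, log2) against the mean ratio (x axis, log2) for every feature measured in all 3, with the 6 genes in red and the median SD of all features dashed (0.27 for introns, 0.29 for junctions, 0.24 for exons). The red points lie above the line for 8 of 12 introns, 8 of 11 junctions and 2 of 6 exons.

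Genes of related function, on lists made with earlier results of these data known, were set beside YOS1 and DYN2. In the secretory traffic list, which holds YOS1, 1 of 17 intron features rose, that of YIP3, with a median of 0.23, and 0 of 17 junctions and 0 of 16 exons passed. In the microtubule list of DYN2, TUB1 and TUB3, 0 of 4 introns, 0 of 4 junctions and 0 of 3 exons passed, with intron medians of -0.21, -0.05 and 0.36 in the replicates. Of a list of genes annotated with 2 introns, 8 were in the table with 15 rows. Of those introns 3 rose, all in RPL7A and RPL7B, and 1 junction fell, that of RPS22B. AIM11, the listed gene with a single row, had an intron ratio of -0.41, 0.15 and -0.41 (-0.22, adjusted p = 0.40). AML1 and SRC1 were not on that list.

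Likeness was measured as the root mean square difference over the 9 values of a gene (3 classes in 3 replicates, rows averaged), against 232 other genes. The closest were RPL16B to AML1 (0.13, over 8 values), QCR9 to DYN2 (0.15), AMA1 to HMRA1 (0.18), SFT1 to TAD3 (0.19), NHP6B to YOS1 (0.22, over 8 values) and TUB3 to SRC1 (0.25). The median distance to the other genes ran from 0.42 for TAD3 to 0.67 for YOS1. None of the 6 genes was the closest to another of them, which says little, since each was compared with 232 genes.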

How the data were processed

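Log ratios of mutant over wild type, taken as log2, came from the authors' deposited table, which per the labels holds 1 value per biological replicate made from an array and its dye flip. The sources used here do not state image analysis, background correction, spot filter, normalization or log base. The authors' deposited single-array log ratios, also taken as log2 (9216 spots, array medians from -0.81 to 0.22) served only to compare arrays. Array number, 6, limits the precision.

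A feature needed values in 2 or more replicates. All were fitted with limma 3.58.1 (R 4.3.3) against 0, two-sided, over the whole table, the 3 classes in 1 fit, with Benjamini-Hochberg adjustment within each class at 0.05. Features repeated on several rows entered once. Differences within a row, and between the rows of all 9 genes with 2 rows, had fits of their own. Row differences were adjusted over all 18. Exon differences between rows were planned but are 0 by construction. Scripts were tested on simulated data. All 6 genes matched RefSeq by locus tag.

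All members were named. Members and lists were chosen with earlier results of these data known. Ribosomal protein genes were taken by name. Alternatives were leaving out each replicate, complete features, robust variances, centring on exons, separate fits, joint adjustment and all pairs of rows.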

Additional observations from a re-analysis of the deposited data

How the results depend on the processing

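For these genes 0 intron and 0 exon ratios passed under any alternative run on them. Intron minus junction, intron minus exon and row differences also gave 0 without each replicate, over complete features and with robust variances, and row differences with separate fits and all pairs of rows. Centring and joint adjustment were not run on differences, nor separate fits on those within a row. Of the junction ratios 0 to 2 passed when a replicate was left out, the 2 being without replicate 1. Over the whole table the calls without 1 replicate ran from 2 to 47 for introns, 0 to 11 for junctions, 2 to 37 for intron minus junction and 0 to 57 for intron minus exon, the lowest being without replicates 2, 2, 3 and 1 in that order. Centring on exons gave 91 introns and 0 junctions, a fit per class 0 junctions, and joint adjustment 7 introns. The number of replicates, with 2 left when 1 was dropped, limits all of these statements.

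Of 66 values for the 6 genes, 35 changed sign when 1 replicate was left out, and the cause was not tested. Among the rest, the first TAD3 junction, its intron minus junction and the TAD3 junction difference could not change. They have no value in replicate 3, and only that replicate could be left out. The ranges of the values that changed sign follow. In the first row of HMRA1 the intron minus exon ran from -0.21 to 0.045, the intron minus junction from -0.53 to 0.12 and the intron ratio from -0.028 to 0.14. In the second row of HMRA1 the intron minus exon ran from -0.13 to 0.15 and the intron ratio from -0.085 to 0.43. For HMRA1 as a gene the exon ratio ran from -0.060 to 0.34 and the second minus first intron from -0.057 to 0.30. In the first row of DYN2 the intron minus exon ran from -0.13 to 0.019 and the intron minus junction from -0.013 to 0.43. In the second row of DYN2 the intron minus exon ran from -0.14 to 0.21 and the intron ratio from -0.18 to 0.16. For DYN2 as a gene the exon ratio ran from -0.17 to 0.022 and the second minus first intron from -0.093 to 0.27. In the first row of YOS1 the intron minus exon ran from -0.37 to 0.21, the intron minus junction from -0.25 to 0.30 and the junction ratio from -0.039 to 0.46. In the second row of YOS1 the intron minus exon ran from -0.58 to 0.61 and the intron ratio from -0.12 to 0.61. For YOS1 as a gene the exon ratio ran from -0.0011 to 0.46 and the second minus first intron from -0.37 to 0.43. In the first row of AML1 the intron ratio ran from -0.080 to 0.37. In the second row of AML1 the intron minus exon ran from -0.36 to 0.16 and the intron ratio from -0.42 to 0.054. For AML1 as a gene the second minus first intron ran from -0.61 to 0.057 and the second minus first junction from -0.57 to 0.32. In the first row of TAD3 the intron ratio ran from -0.18 to 0.28. In the second row of TAD3 the intron ratio ran from -0.045 to 0.12. For TAD3 as a gene the second minus first intron ran from -0.15 to 0.23. In the first row of SRC1 the intron minus exon ran from -0.46 to 0.33, the intron minus junction from -0.077 to 0.68 and the intron ratio from -0.10 to 0.59. In the second row of SRC1 the intron minus exon ran from -0.51 to 0.017, the intron ratio from -0.15 to 0.28 and the junction ratio from -0.32 to 0.059. For SRC1 as a gene the second minus first junction ran from -0.13 to 0.15. Centring on exons also turned the sign of DYN2 row 1 (intron, 0.022), AML1 row 2 (intron, 0.0049), TAD3 row 1 (intron, 0.13), SRC1 row 1 (junction, 0.0012), DYN2 (exon, 0.075), AML1 (exon, 0.036).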
